A study of Mus musculus with 16 samples.

Results

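Expression of 10 eosinophil genes was followed across 16 RNA-seq libraries of mouse bone marrow LSK cells. LSK cells lack markers of mature blood lineages (Lin-) and carry the surface receptors c-Kit and Sca-1, the phenotype of haematopoietic stem cells and early multipotent progenitors. The genes were chosen from a list of known eosinophil granule proteins, receptors and enzymes: Prg2, Prg3, Epx, Ear1, Ear2, Ear6, Ccr3, Siglecf, Il5ra and Alox15. All 10 were among the 55291 genes of the count table, and all 10 were among the 22749 genes that passed the filter on low counts. Each library came from an individual C57BL/6 mouse, with 4 mice per genotype. The genotypes were wild type (WT), Asxl1Y588XTg (a transgene for a truncated form of the chromatin regulator Asxl1, here Asxl1Tg), Srsf2P95H/+ (a heterozygous missense mutation of the splicing factor Srsf2, here Srsf2P95H), and the combination of both (the double mutant, DM). Cells were enriched with beads, and the labels name no treatment, age, sex or batch, nor the promoter of the transgene. The design text gives 3 double mutants, whereas the labels and the count table hold 4, and all 4 were used. Libraries are named by genotype and replicate number.

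Eosinophils are granulocytes that mature in the bone marrow from progenitors under the control of GATA1, C/EBP factors and interleukin 5 (IL-5), the cytokine that drives their growth and release. Their granules are packed with cationic proteins that are toxic to helminths and to host tissue: major basic protein (Prg2), its homologue (Prg3), eosinophil peroxidase (Epx) and the eosinophil-associated ribonucleases (Ear genes). Granule protein transcripts are made early, in eosinophil progenitors and precursors, and decline as the cell matures, whereas the eotaxin receptor Ccr3 and the sialic acid-binding lectin Siglecf mark the more mature cell.

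Levels are given in CPM, the counts of a gene per 1000000 counts of the library after TMM scaling. The library totals ranged from 82.99 to 128 megacounts (1 megacount is 1000000 counts), and the double mutants were sequenced most deeply, with a mean of 120.2 ± 6.47 megacounts (SD, n = 4) against means of 93.6 to 99.1 megacounts in the other genotypes. Markers of the sorted population were present throughout: Kit lay between 699 and 1211 CPM and Ly6a, which encodes Sca-1, between 23.2 and 54.3 CPM. Library WT 4 had the highest sum for several lineage marker lists and bore on every comparison with WT below. All 10 genes of a B-lineage marker list were highest of the 16 libraries in WT 4, where they summed to 141 CPM against 26.8 to 50.4 CPM in the other 15. In WT 4 the neutrophil list (12 of 14 genes tested) summed to 168 CPM and the basophil and mast cell list (13 of 14 tested) to 688 CPM, also the highest of the 16 sums, with ranges of 8.46 to 156 and 149 to 609 CPM elsewhere. Gene by gene, 4 of the 12 neutrophil genes and 4 of the 13 basophil and mast cell genes were highest in WT 4, beside 19.6% of all genes tested. The granulocyte and monocyte progenitor list did not follow, since none of its 10 genes was highest in WT 4. The T and NK cell list summed to 107 CPM there, the lowest of the 16 sums, though 3 of its 11 tested genes were highest in WT 4. By sum, WT 4 ranked 14th of 16 for megakaryocyte, 5th for erythroid and 3rd for monocyte and macrophage markers. The part of these other cell types in the results below was not tested. All p-values are adjusted over the 22749 genes unless stated, with a call at an adjusted p under 0.05. In bulk RNA, fewer cells of a type and less RNA per cell cannot be told apart.

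Eosinophil granule transcripts were readily measured in the LSK-enriched library of every mouse, and 8 of the 10 members were among the genes that varied most from mouse to mouse. Which cells held these transcripts was not tested. Compared per kilobase of exon, Prg2 was the most abundant member, with a wild-type median of 217 CPM per kb. Epx followed at 23.9, Ear1 at 18.1, Ear6 at 15.4, Ear2 at 14.9 and Prg3 at 8.55 CPM per kb. Siglecf (4.87 CPM per kb) and Alox15 (3.08) were lower, and the receptors Ccr3 (0.326) and Il5ra (0.286) were the lowest. Of 22095 genes ranked by CPM per kb, Prg2 was the 15th in WT 4 and the 1871st in the library where it ranked lowest. The SD of log2 CPM over the 16 libraries was 1.42 to 2.01 for 8 members, 0.72 for Il5ra and 0.38 for Siglecf, beside a median of 0.36 and a 95th percentile of 1.12 over all genes tested.

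**Figure D1:**
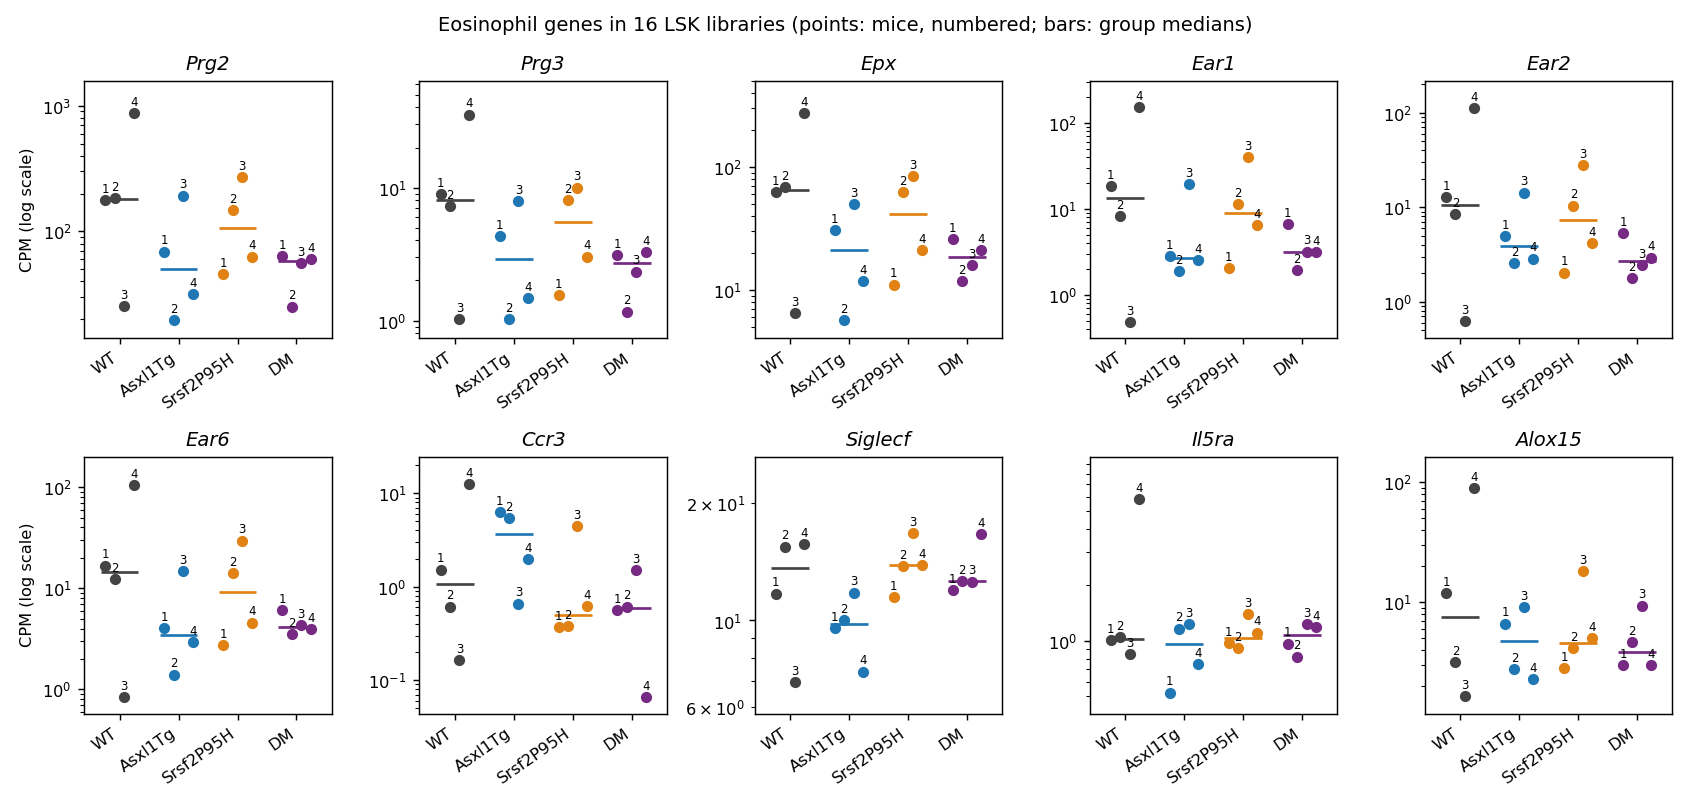
Levels of the 10 eosinophil genes in 16 LSK libraries, 1 panel per gene. The y axis is CPM on a log scale, points are mice numbered by replicate and bars are group medians. WT 4 was the highest library for every gene except Siglecf, and the 4 genotypes overlapped in nearly every panel.

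Prg2 encodes major basic protein, the crystalline core of the eosinophil granule (GRCm38, chr2:84980461-84983632, plus strand). It was at 178, 185, 25.3 and 867 CPM in WT 1 to WT 4, and at 69.0, 19.8, 192 and 31.6 CPM in Asxl1Tg 1 to 4. In Srsf2P95H 1 to 4 it was at 45.7, 149, 271 and 63.0 CPM, and in DM 1 to 4 at 63.4, 25.2, 56.1 and 60.5 CPM. WT held both the highest library and one of the lowest, and its range covered the whole of the other groups except the lowest Asxl1Tg and DM libraries. The mean was 51.3 ± 17.7 CPM for DM, against 314 ± 376 CPM for WT, 132 ± 103 CPM for Srsf2P95H and 78.2 ± 78.9 CPM for Asxl1Tg (SD, n = 4 each). By median the order was WT (181 CPM), Srsf2P95H (106), DM (58.3) and Asxl1Tg (50.3), and every neighbouring pair in that order overlapped.

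Prg3 encodes a homologue of major basic protein and lies next to Prg2 on the same strand (chr2:84988215-84993886). Its longest open reading frame was identical to that of Prg2 at 66.3% of 700 aligned positions, and no 100-base window of either transcript occurred in another gene. Prg3 was at 8.94, 7.28, 1.03 and 35.3 CPM in WT 1 to 4, and at 4.30, 1.02, 7.86 and 1.47 CPM in Asxl1Tg 1 to 4. It was at 1.56, 8.04, 10.004 and 3.02 CPM in Srsf2P95H 1 to 4 and at 3.09, 1.17, 2.33 and 3.27 CPM in DM 1 to 4. The same libraries were high and low as for Prg2, with WT 4 3.53-fold above the next highest, Srsf2P95H 3.

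Epx encodes eosinophil peroxidase, which makes hypohalous acids from hydrogen peroxide (chr11:87864000-87875536, minus strand). It was at 62.4, 68.6, 6.53 and 275 CPM in WT 1 to 4, and at 30.6, 5.70, 49.7 and 11.9 CPM in Asxl1Tg 1 to 4. In Srsf2P95H 1 to 4 Epx was at 11.1, 62.3, 84.9 and 21.04 CPM, and in DM 1 to 4 at 25.95, 11.8, 15.9 and 21.2 CPM. WT 4 was again the highest, 3.23-fold above Srsf2P95H 3, and WT 3 was the second lowest after Asxl1Tg 2.

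The 3 Ear members encode ribonucleases of the eosinophil granule that belong to a fast-evolving rodent family on chromosome 14. Ear1 (chr14:43818765-43875517, minus strand) and Ear2 (chr14:44102654-44103534, plus strand) are close copies, whereas Ear6 lies farther away (chr14:51853699-51854643, plus strand). The longest open reading frames of Ear1 and Ear2 were identical at 95.3% of 471 aligned positions, and those of Ear1 and Ear6 at 87.6% of 469. The likeness extends into the DNA before the starts that RefSeq gives, shown here as a description. Whether it bears on the levels of these genes was not tested. The sequences are bases upstream of the transcription start in RefSeq's annotation of GRCm38.p6, 5′ to 3′ on the gene's own strand. They lie at chr14:43819640-43819889 for Ear1 (minus strand), chr14:44102404-44102653 for Ear2 (plus) and chr14:51853518-51853698 for Ear6 (plus, 181 bases). Those of Ear1 and Ear2 run up to that start. For Ear6, bases that GENCODE places in an exon were left out, so its stretch ends at the GENCODE start, before the RefSeq start. The RefSeq start of Ear1 lies inside the GENCODE gene whose coordinates are given above, which extends farther 5′, so the 2 annotations differ on where Ear1 begins. Capitals in Ear1 mark bases that differ from Ear2, capitals in Ear2 those that differ from Ear1, and capitals in Ear6 those that differ from Ear1.
Ear1: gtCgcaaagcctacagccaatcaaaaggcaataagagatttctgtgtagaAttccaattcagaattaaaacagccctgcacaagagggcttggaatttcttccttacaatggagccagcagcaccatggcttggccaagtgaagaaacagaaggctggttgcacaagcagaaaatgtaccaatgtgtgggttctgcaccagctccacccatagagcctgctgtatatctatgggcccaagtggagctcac
Ear2: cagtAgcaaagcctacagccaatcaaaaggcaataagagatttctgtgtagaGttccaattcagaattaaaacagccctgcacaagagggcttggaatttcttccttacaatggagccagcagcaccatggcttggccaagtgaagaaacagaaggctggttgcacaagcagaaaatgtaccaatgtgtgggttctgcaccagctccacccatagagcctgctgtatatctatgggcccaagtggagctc
Ear6: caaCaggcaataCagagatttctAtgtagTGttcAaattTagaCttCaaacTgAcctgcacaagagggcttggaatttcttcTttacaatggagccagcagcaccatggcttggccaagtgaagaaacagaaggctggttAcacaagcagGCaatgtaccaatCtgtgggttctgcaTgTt
Ear1 and Ear2 were identical at 246 of 248 aligned upstream positions (99.2%), and Ear1 and Ear6 at 163 of 183 (89.1%).

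Because of this likeness, counts of Ear1 and Ear2 are less certain than those of the other members. Of the 100-base windows of the Ear1 transcript 23.9% also occur in another gene (the pseudogene Ear-ps9 or Ear10), as do 13.9% of those of Ear2 (mainly Ear10), but none of those of Ear6. Ear1 also shares 17 exonic bases with Ear-ps9 on the same strand. The strand setting of the counting is not given in the sources used here, and a long noncoding RNA on the opposite strand overlaps Ear2 outside its exons.

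Ear1 was at 18.1, 8.23, 0.486 and 152 CPM in WT 1 to 4, and at 2.80, 1.88, 19.1 and 2.54 CPM in Asxl1Tg 1 to 4. In Srsf2P95H 1 to 4 it was at 2.06, 11.4, 39.8 and 6.45 CPM, and in DM 1 to 4 at 6.65, 1.94, 3.17 and 3.12 CPM. Both ends of the range were wild type: WT 4 was 313-fold above WT 3, the widest span of the 10 members.

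Ear2 was at 12.9, 8.45, 0.619 and 112 CPM in WT 1 to 4, and at 4.92, 2.57, 14.3 and 2.86 CPM in Asxl1Tg 1 to 4. It was at 2.03, 10.4, 28 and 4.14 CPM in Srsf2P95H 1 to 4, and at 5.31, 1.77, 2.45 and 2.94 CPM in DM 1 to 4. The 180.3-fold span again ran from WT 3 to WT 4. Ear6, the member of the family with no shared windows, was at 16.8, 12.4, 0.846 and 104 CPM in WT 1 to 4 and at 4.01, 1.401, 14.7 and 2.92 CPM in Asxl1Tg 1 to 4. Its levels were 2.72, 13.99, 29.6 and 4.57 CPM in Srsf2P95H 1 to 4 and 6.04, 3.501, 4.32 and 3.95 CPM in DM 1 to 4. Ear6 thus had the same extremes as Ear1 and Ear2, with a 123-fold span. Other listed genes of the family in the count table were at or near the detection floor. Of 13 listed family genes 7 were in that table, so the levels of the rest are not known here. Ear10 had 21 counts over the 16 libraries, 14 of them in WT 4, which is 0.0281% of the Ear1, Ear2 and Ear6 counts together. Rnase2a had 12 counts and Rnase2b 7, and Ear14 had 0 in each library, where 3 counts would correspond to 0.0235 to 0.0361 CPM (counting error only).

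Ccr3 encodes the receptor for eotaxins, the chemokines that draw eosinophils into tissue (chr9:124021972-124031689, plus strand). It was at 1.52, 0.612, 0.165 and 12.6 CPM in WT 1 to 4, and at 6.27, 5.37, 0.660 and 1.96 CPM in Asxl1Tg 1 to 4. In Srsf2P95H 1 to 4 it was at 0.370, 0.379, 4.44 and 0.619 CPM, and in DM 1 to 4 at 0.567, 0.611, 1.49 and 0.0658 CPM. Ccr3 departed from the granule genes in Asxl1Tg, where the libraries lowest for Prg2 and Epx (Asxl1Tg 2) and intermediate for them (Asxl1Tg 1) held the third and second highest Ccr3 levels of all 16. The lowest value rests on 8 counts in DM 4.

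Siglecf encodes a sialic acid-binding receptor whose ligation triggers eosinophil death (chr7:43351341-43359531, plus strand). It was at 11.7, 15.5, 6.94 and 15.7 CPM in WT 1 to 4, and at 9.55, 10.02, 11.8 and 7.39 CPM in Asxl1Tg 1 to 4. It was at 11.47, 13.8, 16.8 and 13.9 CPM in Srsf2P95H 1 to 4, and at 11.97, 12.6, 12.6 and 16.6 CPM in DM 1 to 4. Siglecf was the steadiest member, with a 2.42-fold span over all 16 libraries and WT 4 in the third place. Its spread between mice of a genotype (biological coefficient of variation in edgeR, 0.233) lay at percentile 45.02 of all genes tested, whereas 8 members lay between the 97.3rd and the 98.9th percentile and Il5ra at the 86.5th.

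Il5ra encodes the IL-5-specific chain of the IL-5 receptor, which signals together with the shared beta chain (chr6:106710357-106749037, minus strand). It was at 1.004, 1.04, 0.846 and 5.84 CPM in WT 1 to 4, and at 0.523, 1.16, 1.22 and 0.749 CPM in Asxl1Tg 1 to 4. It was at 0.970, 0.908, 1.39 and 1.10 CPM in Srsf2P95H 1 to 4, and at 0.963, 0.821, 1.23 and 1.18 CPM in DM 1 to 4. The 15 libraries other than WT 4 stayed within a 2.65-fold span, and WT 4 stood 4.21-fold above the highest of them. Alox15 encodes a lipoxygenase that makes lipid mediators from arachidonic acid and is also expressed by resident macrophages (chr11:70344152-70352031, minus strand). It was at 11.9, 3.18, 1.65 and 89.2 CPM in WT 1 to 4, and at 6.63, 2.78, 9.05 and 2.29 CPM in Asxl1Tg 1 to 4. It was at 2.82, 4.12, 18.1 and 5.02 CPM in Srsf2P95H 1 to 4, and at 3.00, 4.66, 9.36 and 2.97 CPM in DM 1 to 4. WT 4 exceeded the next highest library by 4.93-fold, the largest such gap of the 10 members.

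**Figure D2:**
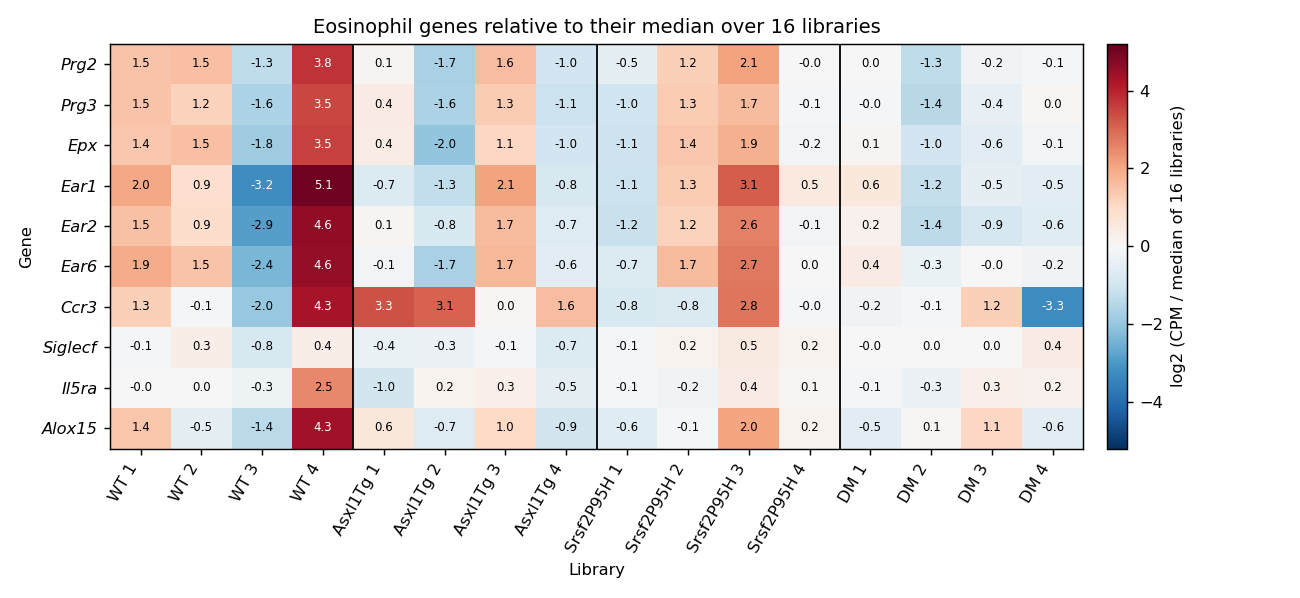
Each gene's log2 CPM relative to its median over 16 libraries (colour and printed value), with genes in rows and libraries in columns grouped by genotype. WT 4 is high for 9 genes, WT 3 is low for the granule genes, and Ccr3 in Asxl1Tg 1 and 2 departs from the rows above it.

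WT 4 was the highest of the 16 libraries for 9 of the 10 members, all but Siglecf, beside 19.6% of all genes tested. For the same 9 members it was over 2 times the next highest library, beside 1.13% of all genes tested. The runner-up was Srsf2P95H 3 for 8 of these 9 (Asxl1Tg 1 for Ccr3), and Srsf2P95H 3 was the highest library for Siglecf. At the other end, WT 3 was the lowest of all libraries for Ear1, Ear2, Ear6, Siglecf and Alox15. Summed over the 10 members, WT 1 to 4 held 323, 310.3, 44.4 and 1669 CPM and DM 1 to 4 held 127, 64.1, 109 and 116 CPM. The double mutants lay closest together for the 6 granule genes (Prg2, Prg3, Epx, Ear1, Ear2 and Ear6). Their highest library was 1.72-fold to 3.42-fold above the lowest, against 34.3-fold to 313-fold in WT, and 7.31-fold to 37.3-fold among WT 1 to WT 3 alone. These spreads were not compared by a test.

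The design asks what each mutation does alone and in combination. No comparison gave a called eosinophil gene with edgeR's quasi-likelihood test, although the fold changes were large. In Asxl1Tg against WT, 0 of 10 members passed, where 1.88% of all genes did. In that comparison the log2 fold change was -2.01 for Prg2 (SE 0.98, adjusted p = 0.262), -2.76 for Ear1 (SE 1.41, adjusted p = 0.279) and -1.26 for Il5ra (SE 0.51, adjusted p = 0.169). The median over the 10 members was -2.04, beside -0.04 over all genes, and Ccr3 was the member nearest to no difference at -0.064 (95% interval -2.82 to 2.69). Of the 10, Il5ra alone had an unadjusted p under 0.05 with edgeR, against 21.5% of all genes. DESeq2 gave 8 members an unadjusted p under 0.05 (15.2% of the 36786 genes with a p-value, since it was run without the count filter) and called 0 (8.68%). Limma-voom gave 0 an unadjusted p under 0.05 (24.8%) and called 0 (5.12%).

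In Srsf2P95H against WT, 0 of 10 members passed in edgeR, where 0.506% of all genes did, and 0 had an unadjusted p under 0.05, against 25.3% of all genes. The log2 fold change was -1.25 for Prg2 (SE 0.96, adjusted p = 0.446), -1.20 for Epx (SE 0.96, adjusted p = 0.460) and -1.82 for Alox15 (SE 1.09, adjusted p = 0.320). Siglecf was the member with a positive value, 0.17 (95% interval -0.28 to 0.62). The median over the members was -1.30, beside -0.05 over all genes. DESeq2 gave 1 member an unadjusted p under 0.05 (17.5% of all genes) and called 0 (13.4%), and limma-voom gave 0 (28.0%) and called 0 (7.49%).

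In DM against WT, 0 of 10 members passed in edgeR, where 9.39% of all genes did. The 6 granule genes had unadjusted p-values under 0.05 in that fit, with lower values in DM, beside 15.4% of all genes. Their log2 fold changes were -2.61 for Prg2 (SE 1.01, adjusted p = 0.108), -2.42 for Prg3 (SE 0.96, adjusted p = 0.115), -2.46 for Epx (SE 0.997, adjusted p = 0.121), -3.59 for Ear1 (SE 1.46, adjusted p = 0.123), -3.42 for Ear2 (SE 1.30, adjusted p = 0.103) and -2.92 for Ear6 (SE 1.20, adjusted p = 0.126). On the linear scale these are 5.33-fold to 12.03-fold lower fitted levels in DM. The 3 other lower members were Ccr3 at -2.44 (adjusted p = 0.240), Il5ra at -1.06 (adjusted p = 0.169) and Alox15 at -2.41 (adjusted p = 0.166), and Siglecf was at 0.11 (adjusted p = 0.757). DESeq2 called these same 6 granule genes lower (adjusted p 0.0183 to 0.0383), as it did 9.57% of the genes it tested, and gave 9 members an unadjusted p under 0.05 (20.9% of all genes). Limma-voom with quality weights called 0 of 10, where it called 19.0% of all genes, and gave none an unadjusted p under 0.05 (34.8%). When WT 4 was left out, DESeq2 called 0 of 10 members and 10.4% of all genes.

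The size of the differences from WT depended on which WT library was left out. With 1 library left out at a time, DM against WT was lowest without WT 3 for most granule genes. The values were then -2.996 for Prg2, -2.80 for Prg3, -2.85 for Epx, -3.83 for Ear2 and -3.32 for Ear6. Ear1 was lowest without DM 1, at -4.03. WT 4 was the highest of the WT libraries for all 10 members, so leaving it out lowers the WT level of each. Without WT 4 the edgeR median over the 10 members moved from -2.04 to -0.34 in Asxl1Tg, from -1.30 to 0.33 in Srsf2P95H and from -2.45 to -1.19 in DM. In Srsf2P95H 8 of the 10 values were then positive. For Ccr3 in Asxl1Tg the value went from -0.064 to 2.23 (adjusted p = 0.395). In DM without WT 4, the 6 granule genes lay between -1.16 (Ear6) and -1.33 (Prg2), with Ear1 moving from -3.59 to -1.26 and Ear2 from -3.42 to -1.23. The adjusted p-values of the 6 genes were 0.388 to 0.558, while Ccr3 was at -0.15, Alox15 at -0.16 and Il5ra at 0.13. No member was called in any of these fits, and 0 of 10 had an unadjusted p under 0.05 without WT 4 in each of the 3 comparisons. The groups overlapped for all 10 members in each comparison with WT, where 8.98% of all genes did not overlap in Asxl1Tg, 13.7% in Srsf2P95H and 18.6% in DM.

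**Figure D3:**
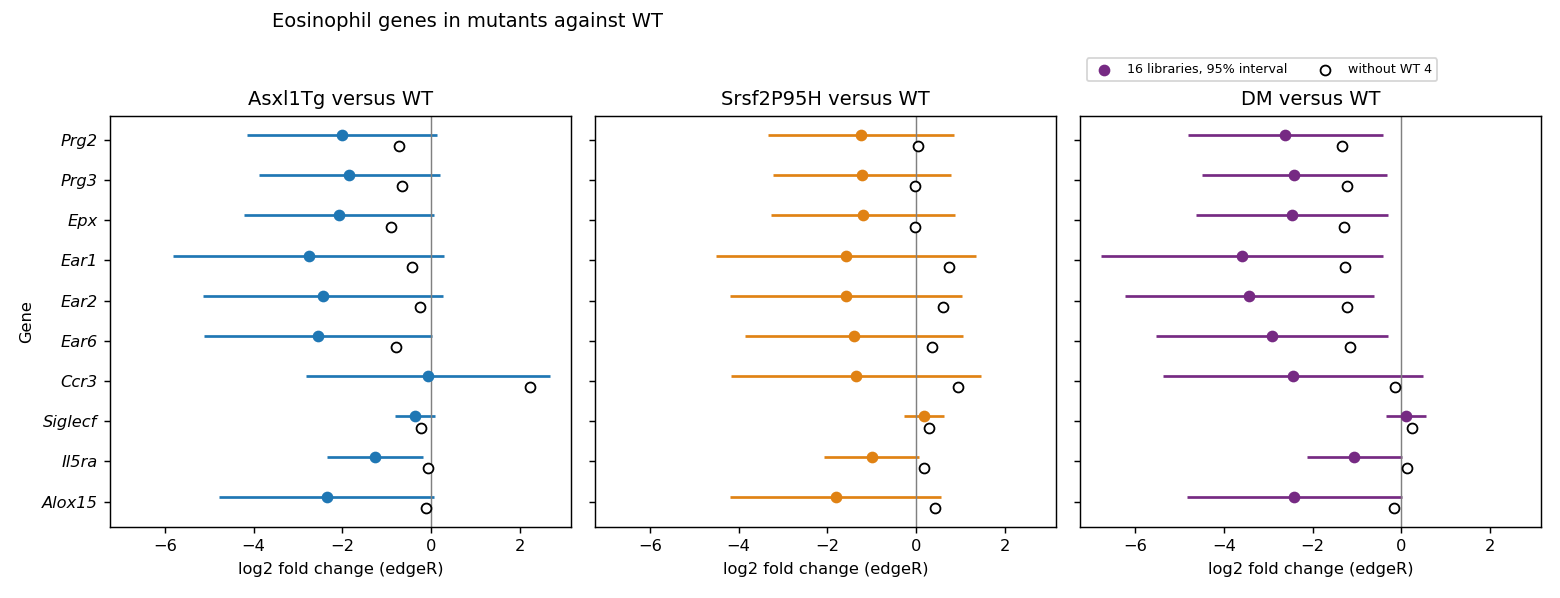
Log2 fold changes of the 10 eosinophil genes in each mutant against WT. Filled points are edgeR estimates from all 16 libraries, with bars for 95% intervals derived from the test's F statistic. Open points are the estimates without WT 4. In DM against WT the open point for Prg2 is at -1.33 and the filled point at -2.61, and most open points lie nearer to 0 than the filled ones.

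The double mutant was next set against each parent genotype, which leaves the wild-type libraries out of the difference. The SEs, intervals and p-values still rest on a spread estimated from all 16 libraries, WT among them. Against Asxl1Tg, 0 of 10 members passed in edgeR, where 1.08% of all genes did, and the median log2 fold change was -0.48. Prg2 was at -0.61 (95% interval -2.68 to 1.47) and Ccr3 at -2.38 (SE 1.35, adjusted p = 0.385). Siglecf was the 1 member whose libraries did not overlap in this comparison, where 11.5% of all genes did not. All 4 DM libraries lay above all 4 Asxl1Tg libraries for Siglecf and for 7.35% of all genes. The nearest libraries were DM 1 at 11.97 CPM and Asxl1Tg 3 at 11.8 CPM. Its log2 fold change was 0.47 (SE 0.21) with an unadjusted p of 0.0408 and an adjusted p of 0.258 in edgeR, and it was the 1 member with an unadjusted p under 0.05 there, against 17.8% of all genes. DESeq2 gave 2 members an unadjusted p under 0.05 (12.5% of all genes) and called 0 (5.80%), and limma-voom gave 2 (23.0%) and called 0 (4.89%).

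Against Srsf2P95H, 0 of 10 members passed in edgeR, where 0.246% of all genes did, and the groups overlapped for all 10 (4.28% of all genes did not overlap). No member had an unadjusted p under 0.05 with edgeR (6.48% of all genes), DESeq2 (5.31%) or limma-voom (8.94%), and the latter tools called 0 members beside 0.978% and 0.453% of all genes. The median log2 fold change was -1.23, from -2.01 for Ear1 (SE 1.38, adjusted p = 0.941) to -0.056 for Siglecf (SE 0.21, adjusted p = 0.998) and Il5ra (SE 0.51, adjusted p = 0.998). For the interaction, the excess of the combined difference over the sum of the separate ones, 0 of 10 members and 0.00% of all genes passed. No member had an unadjusted p under 0.05 for it with edgeR (11.7% of all genes), DESeq2 (8.56%) or limma-voom (16.7%), and the latter tools called 0 members beside 0.193% and 0.0176% of all genes. The interaction was 0.64 for Prg2 (95% interval -2.28 to 3.56) and had a median of 0.70 over the members, which became -0.59 without WT 4.

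The 6 granule genes varied together from mouse to mouse. Their 15 pairwise correlations of log2 CPM over the 16 libraries were between 0.935 and 0.989, and between 0.899 and 0.984 without WT 4. Against Prg2, Pearson's r was 0.988 for Prg3, 0.981 for Epx, 0.966 for Ear6, 0.945 for Ear2 and 0.943 for Ear1, with Spearman's rho of 0.965, 0.965, 0.935, 0.941 and 0.947 (n = 16, permutation p = 1e-05 for each, the smallest that 100000 resamples can give, 1.8e-05 adjusted over 9 relations). With deviations taken from each genotype's mean, r was 0.950 to 0.987 for these 5 genes, and without the 2 libraries farthest from the median of Prg2 (WT 4 and Srsf2P95H 3) it was 0.882 to 0.980.

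The other members followed Prg2 less closely. Alox15 had r = 0.812 and rho = 0.732 (adjusted permutation p = 0.00036 and 0.00272), and r = 0.569 without those 2 libraries. For Siglecf r was 0.623 and rho 0.544 (adjusted permutation p = 0.0108 and 0.0415), and r was 0.523 without them. For Il5ra r was 0.670 and rho 0.468 (adjusted permutation p = 0.00819 and 0.0783), and r was 0.203 without the 2 libraries, so this relation rests on them. For Ccr3 r was 0.357 and rho 0.321 (adjusted permutation p = 0.175 and 0.226), and r was -0.101 without them. The ratio of a member to Prg2 shows the same order. Between its lowest and highest library it varied 1.83-fold for Prg3, 1.94-fold for Epx, 4.16-fold for Ear6, 5.32-fold for Ear2 and 9.14-fold for Ear1, but 249.9-fold for Ccr3. For Ear1 the ratio was lowest in WT 3 and highest in WT 4, the libraries with the lowest and the highest Ear1 level.

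**Figure D4:**
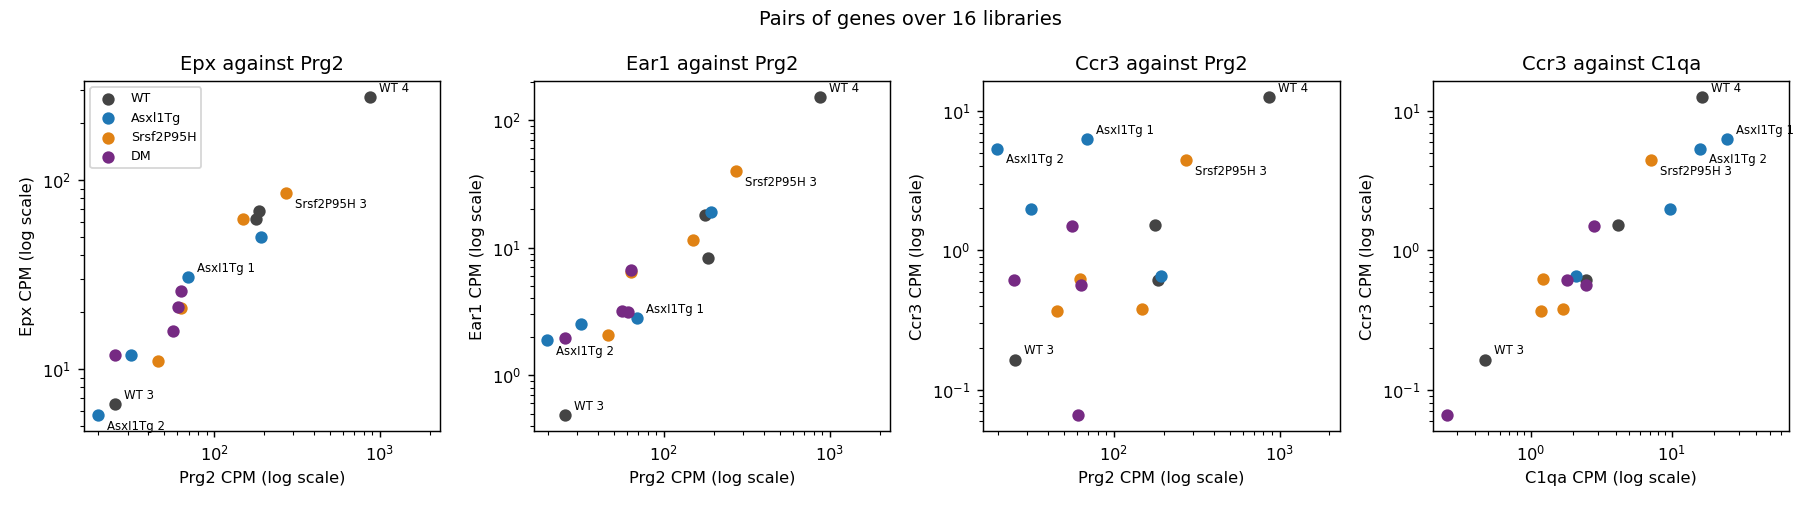
CPM of gene pairs over 16 libraries on log axes, coloured by genotype. Epx (r = 0.981) and Ear1 (r = 0.943) lie along a line with Prg2, Ccr3 does not (r = 0.357), and Ccr3 lies along a line with the macrophage gene C1qa (r = 0.961).

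Ccr3 instead varied with genes of macrophages. The 10 genes whose log2 CPM was most like that of Ccr3 over the 16 libraries, of 12159 genes with a mean of at least 1 CPM, included Siglec1 (r = 0.967), C1qa (r = 0.961), C1qc (r = 0.957), C1qb (r = 0.953), Mertk (r = 0.947) and Mrc1 (r = 0.940), which mark tissue macrophages. The closest was the potassium channel gene Kcna2 (r = 0.978). Looking at Ccr3 in this way was chosen after its values were seen, so these values are a description. C1qa was at 24.8 CPM in Asxl1Tg 1, 15.9 in Asxl1Tg 2 and 16.4 in WT 4, the same 3 libraries that were highest for Ccr3, and at its lowest, 0.255 CPM, in DM 4, as was Ccr3. Of 14 monocyte and macrophage markers, 7 had r above 0.9 with Ccr3 and 0 with Prg2. The list summed to 267 to 501 CPM in the Asxl1Tg libraries, 268 to 321 in the double mutants, 227 to 371 in Srsf2P95H and 170.5 to 397 in WT, and no gene of it was at 0 throughout. The part of macrophage RNA in the Ccr3 values was not tested.

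By mean log2 CPM of the 10 members, the gene outside the list with the most similar pattern was Ikzf3, which encodes the lymphoid transcription factor Aiolos, with r = 0.910 over 16 libraries and 0.816 without WT 4. It was at 10.997 CPM in WT 4 and at 0.517 to 2.67 CPM elsewhere. Gapt (r = 0.859), Ceacam1 (0.845), F5 (0.841) and Syne1 (0.838) followed. Without WT 4 these 4 had r between 0.656 and 0.714.

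GATA factors act on many eosinophil genes, so the DNA upstream of the members was searched for a GATA hexamer (the letters GATA preceded by A or T and followed by A or G, on both strands). RefSeq's promoter table for GRCm38.p6 matched 8 of the 10 members, with Prg2 and Alox15 unmatched. Within the bases before the start, Prg3 held 1 hexamer, Ccr3 held 2 and Il5ra held 1, while Epx, Ear1, Ear2, Ear6 and Siglecf held none. For Ear6 only the 181 bases before the GENCODE exon were searched. In all, 26.6% of 32817 promoter windows of 250 bases held at least 1. The 3 sequences with a match are shown 5′ to 3′ on the gene's strand with the hexamers in capitals, for Prg3 at chr2:84987965-84988214 (plus), Ccr3 at chr9:124021721-124021970 (plus) and Il5ra at chr6:106749038-106749287 (minus).
Prg3: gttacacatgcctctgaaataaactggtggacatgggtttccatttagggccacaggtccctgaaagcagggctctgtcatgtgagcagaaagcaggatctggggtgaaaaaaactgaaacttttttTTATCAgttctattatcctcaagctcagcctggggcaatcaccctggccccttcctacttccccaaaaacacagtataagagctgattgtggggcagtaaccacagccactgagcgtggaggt
Ccr3: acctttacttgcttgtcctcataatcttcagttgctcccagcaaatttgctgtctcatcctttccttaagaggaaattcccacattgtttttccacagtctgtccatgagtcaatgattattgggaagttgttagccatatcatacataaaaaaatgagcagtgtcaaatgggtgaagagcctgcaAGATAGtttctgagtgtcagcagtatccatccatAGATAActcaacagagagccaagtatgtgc
Il5ra: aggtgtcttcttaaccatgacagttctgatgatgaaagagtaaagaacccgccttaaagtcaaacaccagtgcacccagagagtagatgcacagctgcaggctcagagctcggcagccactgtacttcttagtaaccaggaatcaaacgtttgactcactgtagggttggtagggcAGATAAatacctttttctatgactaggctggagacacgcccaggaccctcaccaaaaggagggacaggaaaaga
In Prg3 the hexamer is on the opposite strand, 123 bases before the start. In Ccr3 the 2 lie 64 and 30 bases before it, and in Il5ra 1 lies 74 bases before it. Epx held the letters TATAAA 24 bases before its start, as did 12.4% of windows anywhere in them. Matches were present both in a gene that varied with the granule genes (Prg3) and in one that did not (Ccr3), and they are a description of these letters and not of binding.

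Upstream regulators of the eosinophil lineage were expressed in all genotypes. Of 10 transcription factors tested, 0 passed in any of the 6 comparisons with edgeR, where 0.00% to 9.39% of all genes did. At an unadjusted p under 0.05 there were 0, 2 and 1 of them in Asxl1Tg, Srsf2P95H and DM against WT, beside 21.5%, 25.3% and 30.6% of all genes. Gata1, the factor required for the eosinophil lineage, averaged 24.7 ± 3.06 CPM in DM and 18.7 ± 10.5 CPM in WT, with 17.5 ± 7.79 CPM in Asxl1Tg and 17.6 ± 2.23 CPM in Srsf2P95H (SD, n = 4). In the order DM, WT, Asxl1Tg and Srsf2P95H, Gata2 averaged 206 ± 10.5, 189 ± 19.2, 203 ± 27.8 and 176 ± 23.1 CPM. In that order Cebpe, which granulocytes need to form secondary granules, averaged 12.8 ± 3.53, 10.99 ± 5.66, 9.38 ± 4.09 and 12.1 ± 1.80 CPM. WT 4 was the 12th of 16 libraries for Gata1 and the 6th for Gata2, but the 2nd for Cebpe.

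In the IL-5 pathway 22 of 23 genes were tested, and Cish, a feedback inhibitor of cytokine signalling, was the 1 gene called in DM against WT, where 9.39% of all genes were called. Its log2 fold change was -0.61 (SE 0.18, edgeR adjusted p = 0.0481). Cish was highest in WT 4, and without that library its value was -0.39 (adjusted p = 0.159). No gene of the pathway was called in the other 5 comparisons, where 3 to 7 had an unadjusted p under 0.05 beside 6.48% to 25.3% of all genes. Csf2rb, the signalling chain shared by the receptors for IL-5, IL-3 and GM-CSF, was at 80.7 ± 21.2 CPM in WT and 134 ± 41.4 CPM in Asxl1Tg (log2 fold change 0.73, SE 0.22, edgeR adjusted p = 0.0879). Il5 itself had 51 counts over the 16 libraries and was not tested. Of the 5 chemokines that bind Ccr3, Ccl5 passed the filter and was not called, Ccl11 had 0 counts in every library and Ccl24 had 90 counts in all.

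Among 9 enzymes of lipid mediator synthesis other than Alox15, 1 was higher in Srsf2P95H and 3 were called in DM against WT, where 0.506% and 9.39% of all genes were called. Alox5ap, which presents arachidonic acid to 5-lipoxygenase for leukotriene synthesis, was higher by 0.30 in Srsf2P95H (SE 0.059, edgeR adjusted p = 0.0379) and by 0.41 in DM (SE 0.059, adjusted p = 0.00168). Hpgds, the haematopoietic prostaglandin D synthase, was lower in DM at -1.36 (SE 0.22, edgeR adjusted p = 0.00309), from 9.25 ± 1.34 CPM in WT to 3.603 ± 0.466 CPM in DM (SD, n = 4). The single mutants also averaged below WT, at 5.38 ± 1.68 CPM in Asxl1Tg and 5.97 ± 1.36 CPM in Srsf2P95H, but Hpgds was not called there. The called gene of larger p, Pla2g4a, was higher in DM (0.44, edgeR adjusted p = 0.0165) and is named after its value was seen. Without WT 4 Alox5ap was no longer called in Srsf2P95H (0.26, edgeR adjusted p = 0.107), and the DM values were 0.37 for Alox5ap (adjusted p = 0.0049), -1.27 for Hpgds (adjusted p = 0.00984) and 0.39 for Pla2g4a (adjusted p = 0.0442). Alox5 (14.7 ± 8.002 CPM in WT) and Ltc4s (3.28 ± 0.334), which act in leukotriene synthesis, were not called in any comparison.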

How the data were processed

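Total RNA of individual mice was made into libraries with an NEB Ultra RNA kit and sequenced as paired reads of 100 bases, per the labels' protocols. The authors deposited raw counts per gene. STAR 2.7.0e, HTSeq 0.11.2, Trimmomatic 0.38, FastQC and build mm10 appear in the submitters' processing notes. No source used here gives the annotation or whether counting used strand. Asxl1Tg columns carry abbreviated names and were assigned as the one genotype left.

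Genes were filtered with filterByExpr (minimum count 10), scaled by TMM and tested with edgeR 4.0.16 (robust quasi-likelihood, 1 mean per genotype, all 16 libraries, Benjamini-Hochberg over all genes tested). DESeq2 1.42.0, limma-voom (limma 3.58.1), other scalings and filters, fewer libraries and a replicate block were alternatives. DESeq2 without WT 4 was added after seeing the data. The edgeR step was tested on simulated data. Correlations used log2 CPM with a prior count of 2. Lengths, coordinates and window sharing came from GENCODE M21 (GRCm38).

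All 10 members are named. Other lists give counts, with at most 2 called genes each beside genes needed to describe a pathway, and similar genes are the 10 of highest correlation. The members and lists were chosen with earlier results of these data known.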

Additional observations from a re-analysis of the deposited data

Results flagged for a closer look

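Within each genotype, the highest or lowest of the 4 libraries was compared with its nearest neighbour relative to the whole range (Dixon's test at its 95% critical value) for the 10 members and their sum. Of 44 such groups 10 had a library that stood apart. The critical value gives about 1 in 20 for normally distributed values. The values compared were CPM without a log, which need not be so distributed, so 10 of 44 cannot be set against that rate. In 6 members this was WT 4: Ear1 at 152.1 CPM, Ear2 at 111.6 CPM, Ear6 at 104.5 CPM, Ccr3 at 12.6 CPM, Il5ra at 5.84 CPM and Alox15 at 89.2 CPM. Srsf2P95H 3 stood apart within its genotype for Ccr3, at 4.44 CPM, and for Alox15, at 18.1 CPM. Asxl1Tg 3 stood apart for Ear1, at 19.1 CPM, and DM 4 for Siglecf, at 16.6 CPM. Prg2, Prg3 and Epx had no library past the critical value in any genotype. The flags share libraries, and the Ear genes share sequence, so they are not independent.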

How the results depend on the processing

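Over the 60 fold changes of members and their alternatives, 1044 of 1130 values kept their direction and stayed uncalled, 6 became called and 80 changed sign, and 48 of those 80 came from fits without WT 4. The 6 called values were Prg2 (-2.60), Prg3 (-2.41), Epx (-2.45), Ear1 (-3.57), Ear2 (-3.41) and Ear6 (-2.91) in DM against WT with DESeq2, so that the count of called members there was 6 in place of 0, and again 0 without WT 4. The sign changed with limma-voom in Asxl1Tg against WT for Ccr3 (1.82), in Srsf2P95H against WT for Ear1 (0.30), Ear2 (0.016), Ccr3 (0.20) and Alox15 (0.20), in DM against Asxl1Tg for Ear6 (0.045), in the interaction for Ear1 (-0.65), Ear2 (-0.82) and Alox15 (-0.23). Without both WT 4 and Srsf2P95H 2 it changed in Asxl1Tg against WT for Ccr3 (2.23), in Srsf2P95H against WT for Ear1 (0.85), Ear2 (0.64), Ear6 (0.30), Ccr3 (1.25), Il5ra (0.26) and Alox15 (0.63), in DM against WT for Il5ra (0.12), in the interaction for Prg2 (-0.58), Prg3 (-0.33), Epx (-0.15), Ear1 (-1.67), Ear2 (-1.62), Ear6 (-0.67), Il5ra (-0.057) and Alox15 (-0.68). With DESeq2 without WT 4 it changed in Asxl1Tg against WT for Ccr3 (2.23), in Srsf2P95H against WT for Prg2 (0.034), Ear1 (0.74), Ear2 (0.61), Ear6 (0.35), Ccr3 (0.93), Il5ra (0.19) and Alox15 (0.43), in DM against WT for Il5ra (0.13), in the interaction for Prg2 (-0.66), Prg3 (-0.57), Epx (-0.37), Ear1 (-1.58), Ear2 (-1.603), Ear6 (-0.74) and Alox15 (-0.50). With 1 library left out at a time, some values changed sign, and in Asxl1Tg against WT they ranged from -0.46 to 2.23 for Ccr3. In Srsf2P95H against WT they ranged from -1.87 to 0.033 for Prg2, from -2.75 to 0.74 for Ear1, from -2.59 to 0.61 for Ear2, from -2.24 to 0.35 for Ear6, from -3.02 to 0.93 for Ccr3, from -0.030 to 0.30 for Siglecf, from -1.27 to 0.18 for Il5ra and from -2.73 to 0.43 for Alox15. In DM against WT they ranged from -0.087 to 0.24 for Siglecf and from -1.32 to 0.12 for Il5ra. In DM against Asxl1Tg they ranged from -0.93 to 0.36 for Prg2, from -0.88 to 0.12 for Prg3, from -0.71 to 0.22 for Epx, from -1.27 to 0.63 for Ear1, from -0.69 to 0.68 for Ear6, from -0.013 to 0.37 for Il5ra and from -0.55 to 0.36 for Alox15. In DM against Srsf2P95H they ranged from -1.81 to 0.59 for Ccr3, from -0.17 to 0.043 for Siglecf, from -0.14 to 0.079 for Il5ra and from -1.09 to 0.33 for Alox15. In the interaction they ranged from -0.64 to 1.599 for Prg2, from -0.55 to 1.34 for Prg3, from -0.35 to 1.42 for Epx, from -1.56 to 2.21 for Ear1, from -1.59 to 1.61 for Ear2, from -0.72 to 2.08 for Ear6, from -3.31 to 0.65 for Ccr3 and from -0.48 to 2.68 for Alox15. The labels do not say whether replicate numbers pair mice. Among libraries of the same number, 24 pairs had correlations of deviations from -0.293 to 0.295, 5 above 0.1. Of 16 libraries, 3 had their best correlation with a library of the same number. Such correlations cannot decide whether mice were paired. With the replicate block no member was called, the sign changed in Asxl1Tg against WT for Ccr3 (0.47), in DM against Asxl1Tg for Ear6 (0.018), and the genes called over the whole table numbered 648 in Asxl1Tg against WT and 952 in Srsf2P95H against WT. Counts of called genes over the whole table were 428, 115, 2135, 245, 56 and 0 in the 6 comparisons and moved by over 1.5 times as follows. With DESeq2 they were 1769 in Asxl1Tg against WT, 2452 in Srsf2P95H against WT, 3898 in DM against WT, 1141 in DM against Asxl1Tg, 234 in DM against Srsf2P95H and 53 in the interaction. With limma-voom they were 1164 in Asxl1Tg against WT, 1703 in Srsf2P95H against WT, 4311 in DM against WT, 1112 in DM against Asxl1Tg, 103 in DM against Srsf2P95H and 4 in the interaction. With DESeq2 without WT 4 they were 805 in Asxl1Tg against WT, 658 in Srsf2P95H against WT and 38 in the interaction. With the compared groups only they were 73 in Asxl1Tg against WT, 2 in Srsf2P95H against WT and 17 in DM against Asxl1Tg. Without both WT 4 and Srsf2P95H 2 they were 212 in Asxl1Tg against WT, 298 in Srsf2P95H against WT, 655 in DM against Asxl1Tg and 26 in DM against Srsf2P95H. With library size only they were 217 in Srsf2P95H against WT and 86 in DM against Asxl1Tg. With no filter they were 101 in DM against Asxl1Tg and 1 in the interaction. With at least 1 CPM in 4 samples they were 202 in Srsf2P95H against WT. With RLE factors they were 135 in DM against Asxl1Tg. Leaving out 1 library at a time they ranged from 121 (without Asxl1Tg 4) to 2330 (without Asxl1Tg 2) in Asxl1Tg against WT, from 0 to 1638 (without WT 1) in Srsf2P95H against WT, from 586 (without DM 1) to 2660 (without DM 3) in DM against WT, from 0 to 7 (without WT 1) in the interaction, from 10 (without Asxl1Tg 1) to 266 (without Asxl1Tg 3) in DM against Asxl1Tg and from 20 (without Srsf2P95H 4) to 48 (without DM 1) in DM against Srsf2P95H, and the count of called members was 0 throughout. The split by direction with library size only was 40 higher and 177 lower in Srsf2P95H against WT in place of 60 and 55, 551 higher and 1492 lower in DM against WT in place of 1058 and 1077 and 32 higher and 54 lower in DM against Asxl1Tg in place of 193 and 52. That scaling moved the median log2 fold change of all genes in Srsf2P95H against WT from -0.048 to -0.16. The cause of these changes was not tested. The lowest count of a member in a library was 8 (Ccr3 in DM 4), where counting error is largest.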

Other observations

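Among the 4 members outside the granule genes, each had its own closest genes over the 16 libraries, looked at after the values were seen and given as a description. Alox15 was most like Adam8 (r = 0.907, 0.773 without WT 4), which encodes a leukocyte metalloprotease, and Retnlg (r = 0.891, 0.757 without WT 4), a gene of neutrophils. Siglecf was most like Slk (r = 0.916, 0.936 without WT 4), a kinase gene, and Hdc (r = 0.885, 0.892 without WT 4), which encodes the histamine-forming enzyme of basophils, mast cells and myeloid progenitors. Clec12a, a receptor gene of myeloid cells, had r = 0.869 with Siglecf, and 0.918 without WT 4. For Il5ra the closest gene, Cds2, had r = 0.893 over 16 libraries and 0.561 without WT 4. Among markers fixed in lists, the highest correlation of Prg2 was 0.786, with a T or NK cell marker, and its median over 14 monocyte and macrophage markers was 0.275, where that of Ccr3 was 0.858.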
